A study of Mus musculus with 24 samples.

Results

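Long intergenic noncoding RNAs (lincRNAs) of mouse liver were taken as the genes with the type lincRNA in the GENCODE M21 annotation and a mean normalized count of at least 10 over 24 livers. Of 22392 genes in the table, 637 were lincRNAs, and 160 of these reached the minimum. They were selected on their mean level, so the levels below are descriptive. All mice were of the CD2F1 strain and formed 3 groups of 8. CT mice had a sham injection, C26 mice carried the transplanted C26 colon carcinoma, a tumour known to make mice waste away (cachexia). C26-CHO mice had the same tumour and were fed cholestyramine, which holds bile acids back in the intestine. Cholestyramine made up 2% of the diet by weight between day 1 and day 10 after the injection. The sources used here do not give age, sex or tumour size. A normalized count is the number of reads of a gene in a liver, scaled by the size factor of its library.

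A lincRNA is transcribed, capped and usually spliced and polyadenylated like an mRNA, lies outside protein-coding genes, and has no long conserved reading frame. Some of them act in the nucleus, where they scaffold nuclear bodies or silence genes on their own chromosome, and some are hosts whose introns or exons are cut into small nucleolar RNAs (snoRNAs) or microRNAs. For most of them no function is known, and their levels in liver are low and often specific to a cell type or condition.

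Recovered reads per library were 20.7 M to 24.1 M in CT, 19.9 M to 29.1 M in C26 and 20.8 M to 30.5 M in C26-CHO. The label liver was checked on 8 hepatocyte markers, all of which were measured in every group, and albumin had a mean normalized count of 1034280 ± 78170 (SD, n = 8) in CT. In C26, 4 of these 8 markers were lower, among them albumin at 250837 ± 47463, and 2 were higher, and the list summed to 1621890 to 1859890 in CT, 742626 to 936220 in C26 and 767310 to 956008 in C26-CHO. The mouse C26-CHO 1 stood apart from the other 7 of its group, as described with the cholestyramine results. In C26, 7 of 8 macrophage markers and all 4 tested neutrophil markers of 8 were higher than in CT, and the summed level of the neutrophil list was 12.4 to 30.9 in CT, 160 to 845 in C26 and 93.9 to 356 in C26-CHO. The macrophage list summed to 4270 to 6197, 7491 to 9807 and 7188 to 12585 in the same order. Of the B and plasma cell markers, 4 of 6 tested were lower, with sums of 272 to 629 in CT, 134 to 366 in C26 and 162 to 409 in C26-CHO. Of the cholangiocyte markers, 2 of 5 tested were higher, Spp1 (4.49 on the log2 scale) and Sox9 (3.96). The others tested, Krt19 (-0.56, adjusted p = 0.0674), Krt7 (-0.23) and Epcam (-0.13), were not called. The list summed to 316 to 480 in CT, 5474 to 11395 in C26 and 2173 to 9460 in C26-CHO. Most of these sums was Spp1, with means of 330, 7557 and 4706 in the same order. Sinusoidal endothelial markers were higher for 5 and lower for 1 of 8. No marker of these lists was at 0 in all mice of a group. In whole liver, fewer cells of a type and less RNA per cell cannot be told apart, and the part of changed cell numbers in the results below was not tested.

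Most of the 160 lincRNAs were rare. Of these, 54 had a mean between 10 and 20, 50 between 20 and 50, 28 between 50 and 100, 21 between 100 and 1000, and 7 over 1000. The minimum was met narrowly by Gm26530 with a mean of 10.03, Lncpint with 10.05 and Gm26882 with 10.3, and missed narrowly by 2210406O10Rik with 9.85, Gm26514 with 9.63 and Gm26816 with 9.57. In 122 of the 160 the mean reached 10 in all 3 groups. The other 38 fell below it in at least 1 group, 23 of them in CT only. A lincRNA that met the minimum only through its high group had to differ between groups, so counts are also given for the 122. Most symbols were anonymous, with 136 of 160 being Gm, Rik or clone names. The median merged exon length was 2482 bases, and the median number of exon blocks was 3.

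Sequence windows are shown for lincRNAs among the 8 largest rises and 8 largest falls in C26 (called, with a mean of at least 20) whose RefSeq promoter window starts within 100 bases of the GENCODE start. That left 2 of the rises and 4 of the falls. The limit of 100 bases was not part of the planned choice of windows. Each window runs from 250 bases before the start site to 50 bases after it (RefSeq, build GRCm38.p6), is printed in the direction of transcription in lower case, and has every CACGTG in capitals. CACGTG is the E-box, a site of basic helix-loop-helix factors such as MYC, USF and the clock factors, and it reads alike on both strands. Gm4262 and Gm15348 rose and the other 4 fell.
Gm4262, chr16:11008648-11008947, plus strand: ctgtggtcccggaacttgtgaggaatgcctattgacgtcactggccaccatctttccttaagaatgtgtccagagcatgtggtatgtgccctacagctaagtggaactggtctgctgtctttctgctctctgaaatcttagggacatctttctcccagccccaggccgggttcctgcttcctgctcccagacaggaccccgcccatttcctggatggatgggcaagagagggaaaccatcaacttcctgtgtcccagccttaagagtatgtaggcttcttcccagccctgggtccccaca
Gm15348, chr8:12719078-12719377, minus strand: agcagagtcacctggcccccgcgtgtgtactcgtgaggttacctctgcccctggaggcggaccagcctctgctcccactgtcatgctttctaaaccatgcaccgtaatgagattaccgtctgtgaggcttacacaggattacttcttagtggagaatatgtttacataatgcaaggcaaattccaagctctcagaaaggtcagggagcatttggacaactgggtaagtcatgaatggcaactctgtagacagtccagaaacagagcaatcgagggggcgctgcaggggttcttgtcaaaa
Gm15408, chr5:149006712-149007011, plus strand: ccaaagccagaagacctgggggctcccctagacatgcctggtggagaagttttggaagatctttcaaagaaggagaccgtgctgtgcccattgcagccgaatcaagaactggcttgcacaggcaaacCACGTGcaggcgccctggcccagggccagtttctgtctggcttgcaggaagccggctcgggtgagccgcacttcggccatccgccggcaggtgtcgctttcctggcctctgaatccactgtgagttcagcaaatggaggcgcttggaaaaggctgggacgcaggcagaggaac
1700001L05Rik, chr15:83367248-83367547, minus strand: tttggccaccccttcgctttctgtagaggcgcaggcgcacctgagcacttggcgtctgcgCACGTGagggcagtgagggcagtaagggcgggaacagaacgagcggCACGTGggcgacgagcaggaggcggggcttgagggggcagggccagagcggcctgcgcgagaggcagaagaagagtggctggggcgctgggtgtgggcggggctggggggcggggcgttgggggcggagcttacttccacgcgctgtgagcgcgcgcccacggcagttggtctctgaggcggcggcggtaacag
D630024D03Rik, chr11:31824498-31824797, minus strand: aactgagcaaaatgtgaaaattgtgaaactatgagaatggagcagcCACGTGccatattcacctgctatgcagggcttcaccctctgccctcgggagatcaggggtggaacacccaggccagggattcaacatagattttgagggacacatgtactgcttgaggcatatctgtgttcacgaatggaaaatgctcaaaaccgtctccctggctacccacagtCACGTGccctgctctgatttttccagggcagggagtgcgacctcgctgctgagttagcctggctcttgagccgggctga
Gm17586, chr11:120633500-120633799, plus strand: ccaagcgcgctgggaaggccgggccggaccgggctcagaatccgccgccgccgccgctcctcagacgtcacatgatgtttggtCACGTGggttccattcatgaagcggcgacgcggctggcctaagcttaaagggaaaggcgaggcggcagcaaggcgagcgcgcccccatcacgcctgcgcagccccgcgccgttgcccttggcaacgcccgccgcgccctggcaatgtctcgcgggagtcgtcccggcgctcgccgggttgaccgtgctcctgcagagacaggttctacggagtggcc
The printed windows of the 4 lincRNAs that fell held 1 or 2 copies of the E-box, and those of Gm4262 and Gm15348 held none. Of the other largest falls, 9030622O22Rik, 2310001H17Rik and D630033O11Rik had windows 145, 243 and 16280 bases from the GENCODE start, without an E-box. Of the other largest rises, 3930402G23Rik and Rubie had windows 239 and 22574 bases away, also without it. Of the other named lincRNAs, not among these 16, Malat1, Meg3, Snhg20 and AW112010 fell, and their windows held none. The windows of Gm5627, Snhg18, Gm27216, Ftx, Mirg and Mir17hg, which rose and are not among the 16, held none either. That of Jpx, which rose too and is not among the 16, held 1. A RefSeq window was found for 82 of the 160 lincRNAs. Of those, 13 (15.9%) held CACGTG, against 7.15% of all 32851 promoter windows. The 82 are 1 window per lincRNA, whereas the 32851 can hold several windows of a gene, so the shares are not fully alike. It was in 7 of the 29 windows of lincRNAs that fell in C26 and in 2 of the 27 of those that rose. Only 53 of the 82 windows start within 100 bases of the GENCODE start. Among the 53, the E-box was in 10 (18.9%), in 5 of the 17 of lincRNAs that fell and in 2 of the 18 of those that rose. Other motifs, searched on both strands in all 82, were rare. TTCCNGGAA, the site of STAT factors, was in 2 of 82 windows (2.44%, against 1.15% of all). TGATGNAAT, the composite site of ATF4 and C/EBP, and GTTAATNAT, the HNF1 site, were in 1 of 82 each, against 0.965% and 0.801% of all windows. TTGCGNAA, the C/EBP site, and CAAAGTCCA, the HNF4A site, were in 0 of 82, against 0.798% and 0.475% of all windows. A match describes the letters in the window and no binding was measured.

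The lincRNAs with the most reads per base were led by an annotation that overlaps ribosomal RNA. Gm42418 (chr17:39846958-39848788, 1 exon) overlaps Rn18s-rs5, a pseudogene of 18S ribosomal RNA in RefSeq, and AY036118. Its normalized count was 75542 at the lowest, 146875 at the median and 198219 at the highest in CT, and 204439, 287587 and 368844 in C26. The groups did not overlap. In C26-CHO it ranged from 109591 to 340193 around a median of 218772. It took up 0.377% to 1.02% of all reads in CT and 0.827% to 1.46% in C26, more than the other lincRNAs together, which held 0.207% ± 0.00776 of the reads in CT and 0.139% ± 0.0047 in C26 (mean ± SD, n = 8). The log2 fold change of Gm42418 in C26 was 1.03 (SE 0.21, adjusted p = 0.000135), but -0.34 (adjusted p = 0.253) after quantile normalization. Of the alternatives run, only quantile normalization turned its sign or lost its call in C26 against CT. Reads of this annotation and of ribosomal RNA cannot be told apart. Gm26917, which lies just before it on chromosome 17, went the other way, with 1384 ± 297 in CT and 1121 ± 87 in C26 and a log2 fold change of -0.28 (adjusted p = 0.0216). That call was lost after quantile normalization (-0.19, adjusted p = 0.104), without CT 6 (-0.21, adjusted p = 0.0586) and without CT 7 (-0.23, adjusted p = 0.0535).

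Per kb of merged exon, Gm42418 was followed by Malat1 at a mean of 2605 over all livers, Gm10076 at 1383, AW112010 at 850, Gm27216 at 552, Tmem250-ps at 407, 1810058I24Rik at 385 and Gm26917 at 358. RefSeq lists Gm10076 as a pseudogene and Tmem250-ps and 1810058I24Rik as protein-coding, so these are lincRNAs by the GENCODE type only. Gm10076 rose from 376 ± 40.5 in CT to 617 ± 52.2 in C26, with no overlap of the groups (log2 fold change 0.72, SE 0.07, adjusted p = 2.81e-09). Gm27216 rose from a range of 123 to 246 to a range of 422 to 543 (1.43, SE 0.12, adjusted p = 4.75e-11). AW112010, an RNA of immune cells induced by interferon, fell from 831 ± 161 to 544 ± 60.2 (-0.59, SE 0.13, adjusted p = 0.000306), and its groups overlapped. Tmem250-ps was level at 1060 ± 120 in CT and 1000 ± 99.4 in C26 (-0.08, adjusted p = 0.302).

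The first comparison, C26 against CT, asks which liver lincRNAs changed in tumour-bearing mice. A gene was called when the adjusted p of the limma fit was under 0.05. Of the 160 lincRNAs, 102 were called (63.8%), against 66.3% of all 14040 genes tested. Higher calls numbered 53 (33.1%, against 33.3% of all genes) and lower calls 49 (30.6%, against 32.9%). At a change of at least 2-fold, 31 were higher (19.4%, against 9.11%) and 18 lower (11.2%, against 8.26%). Of the 122 with a mean of at least 10 in all 3 groups, 34 were called higher and 40 lower, and 13 in each direction by at least 2-fold. The share of all genes under this stricter filter was not computed, so counts of the 122 here and below have no background. Whether the larger share of 2-fold calls holds among the 122 was not tested. Every C26 mouse was above every CT mouse for 27 lincRNAs (16.9%, the same share as the 16.9% of all genes) and below for 22 (13.8%, against 18%). Among the 122 these numbers were 15 and 17. The median log2 fold change was 0.06 for lincRNAs and 0.01 for all genes. After quantile normalization the median of the lincRNAs was -0.06. The median size of the change without its sign was 0.58 for lincRNAs and 0.38 for all genes. These 2 sizes include genes that met the minimum only through a high group, and they were not matched for level. A mean of 10 to 50 was found for 104 of the 160 lincRNAs and 2806 of the 14040 genes. The plot of level against change shows that the largest changes were among lincRNAs of low and middle level.

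**Figure D1:**
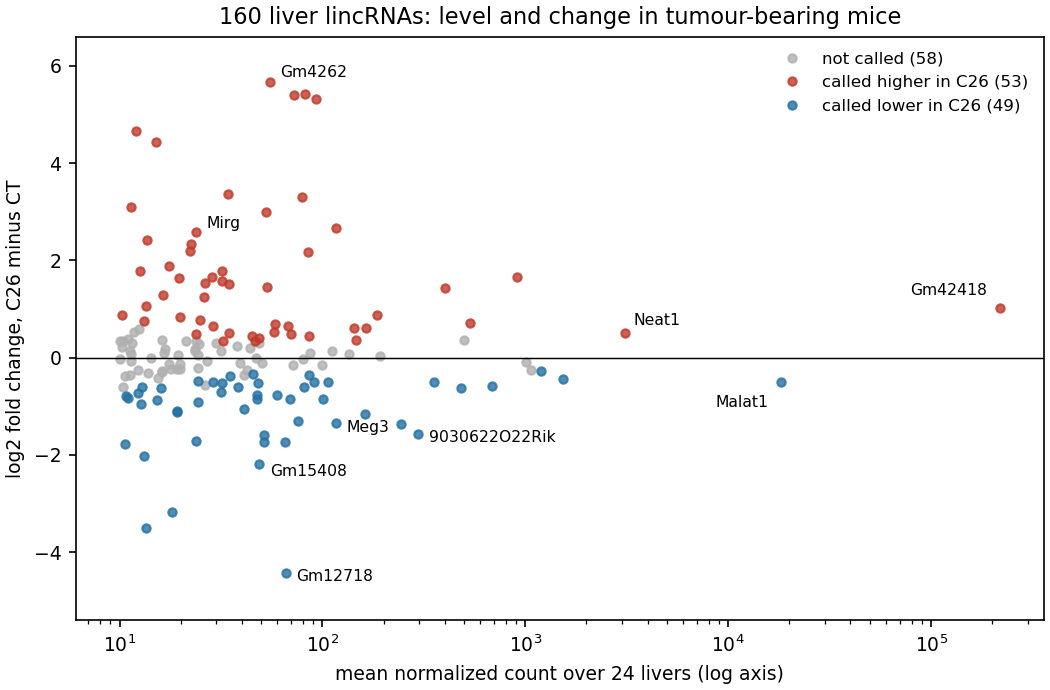
Each point is 1 of 160 lincRNAs, placed by its mean normalized count over 24 livers (log axis) and its log2 fold change of C26 minus CT; red points were called higher (53), blue points lower (49) and grey points were not called (58). Changes run from -4.42 for Gm12718 to 5.68 for Gm4262, and Malat1 and Gm42418 at the right changed by -0.49 and 1.03.

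4 lincRNAs that were almost silent in control livers rose to group means of 83.6 to 141 in C26. Fold changes are on the scale of log2(value + 1), which understates the change of such genes. From here on, 3 values for a group are those of its lowest, median and highest mouse, a value with ± is the mean and SD of 8 mice, and the value in parentheses is the log2 fold change with its standard error (SE). Positions are on GRCm38. Gm4262 (chr16:11008898-11015186, plus strand, 3 exons) was 0 at the lowest, 0.431 at the median and 3.52 at the highest in CT, and 58.9, 79.5 and 130 in C26. It came from 8 reads in all CT livers together and 599 in C26, and on the log2 scale it rose by 5.68 (SE 0.26, adjusted p = 9.16e-16). It lies inside the span of Litaf, a gene named for its induction by lipopolysaccharide, on the opposite strand and without exon overlap. Litaf itself went from 884 ± 122 to 6138 ± 694 (log2 fold change 2.80, adjusted p = 2.38e-19). The use of strand in counting is not stated, and without it reads of unspliced Litaf RNA and of Gm4262 cannot be told apart.

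Gm15348 (chr8:12706944-12719127, minus strand) had 0, 2.61 and 4.87 in CT, and 79.4, 134 and 176 in C26 (5.43, SE 0.25, adjusted p = 6.78e-16). Its nearest tested protein-coding gene, Tubgcp3, a tubulin complex gene 34696 bases away, had -0.12 (adjusted p = 0.0838). 1200007C13Rik (chr2:167827693-167833646) had 0.862, 2.26 and 8.61 in CT and 105, 144 and 164 in C26 (5.31, SE 0.31, adjusted p = 7.58e-14). For both, the lowest C26 mouse was over 10 times the highest CT mouse.

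3930402G23Rik (chr8:10924427-10928696, minus strand), 55985 bases from the insulin signalling gene Irs2, was uneven across mice. It had 0.883, 1.44 and 3.52 in CT and 28.4, 127 and 265 in C26 (5.41, SE 0.53, adjusted p = 1.46e-09). In C26-CHO it had 11 at the lowest, 27.2 at the median and 267 at the highest, with 5 of 8 mice below every C26 mouse and 3 at 80.8 or more. The difference between C26-CHO and C26 was -1.26 (SE 0.53, adjusted p = 0.287).

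The other named rises started from a measurable level. Rubie, an RNA known from the inner ear, where it lies upstream of Bmp4, had 2.65, 10.5 and 16.6 in CT and 72.2, 98.6 and 150 in C26 (3.29, SE 0.32, adjusted p = 1.28e-09). Gm15611, 1078 bases from the peroxisomal carnitine transferase gene Crot, had 1.77, 6.01 and 15.7 in CT and 32.3, 41.9 and 167 in C26 (2.99, SE 0.33, adjusted p = 1.17e-08). 2 C26 mice, at 108 and 167, were far above the other 6, which lay between 32.3 and 63.8. Gm12840 had 20.3, 24 and 38.3 in CT and 110, 186 and 250 in C26 (2.68, SE 0.23, adjusted p = 1.22e-10). Gm17281 rose from 4.68 ± 3.5 to 49.9 ± 10.2 (3.37, SE 0.30, adjusted p = 2.86e-10), but it overlaps an exon of Pacsin3 on the other strand (932 ± 94 in CT and 1148 ± 62.7 in C26), so its reads are uncertain. In all of these the lowest C26 mouse was above the highest CT mouse.

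Gm12718 showed the largest fall. This RNA (chr4:103382500-103492040, plus strand, 10632 bases from the mitochondrial protease gene Oma1) had 143, 176 and 203 in CT and 3.13, 6.7 and 16.4 in C26 (log2 fold change -4.42, SE 0.43, adjusted p = 1.72e-09). Oma1 had 0.27 (adjusted p = 0.00304), the opposite sign. The C26-CHO values of Gm12718 were 1.69 to 16.6 in 7 mice and 56.3 in C26-CHO 1.

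Gm15408 (chr5:149006962-149012776) had 56.4, 94.8 and 134 in CT and 10.4, 23 and 28.1 in C26 (-2.18, SE 0.24, adjusted p = 1.09e-08). 1700001L05Rik had 70.6, 100 and 122 in CT and 21.5, 29.2 and 31.8 in C26 (-1.74, SE 0.16, adjusted p = 3.54e-10), while Arfgap3, a Golgi trafficking gene 3600 bases away on the same strand, rose by 0.91 (adjusted p = 8.02e-07). D630033O11Rik had 78.6, 119 and 151 in CT and 28.9, 33.6 and 40.4 in C26 (-1.73, SE 0.13, adjusted p = 1.98e-11). D630024D03Rik fell by 1.72 (SE 0.37, adjusted p = 0.000197) from 46 ± 13.5 to 14 ± 7.2, and the lowest CT mouse, at 29.6, was only just above the highest C26 mouse, at 29.4.

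The other 3 named falls lay between -1.58 and -1.36. 9030622O22Rik (chr2:147944740-148040203, minus strand) lies 2674 bases from Foxa2, a pioneer transcription factor of liver, on the same strand. It had 465, 525 and 609 in CT and 137, 177 and 253 in C26 (-1.57, SE 0.13, adjusted p = 5.49e-11), whereas Foxa2 had 445 ± 146 and 400 ± 58.3 (-0.10, adjusted p = 0.567). 2310001H17Rik had 306, 413 and 466 in CT and 115, 167 and 207 in C26 (-1.36, SE 0.12, adjusted p = 3.18e-10), and Clec2d, a lectin ligand of natural killer cell receptors 21878 bases away, had -1.12 (adjusted p = 4.69e-08). Gm17586 (chr11:120633768-120635125) is transcribed away from Mafg, a small Maf transcription factor, with start sites 168 bases apart, so that its window above is shared by both. It had 71.8, 88.9 and 102 in CT and 20.8, 29.6 and 36.6 in C26 (-1.58, SE 0.19, adjusted p = 6.66e-08), and Mafg fell by 0.52 (adjusted p = 2.29e-07). No C26 mouse reached the lowest CT mouse for any of these falls.

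**Figure D2:**
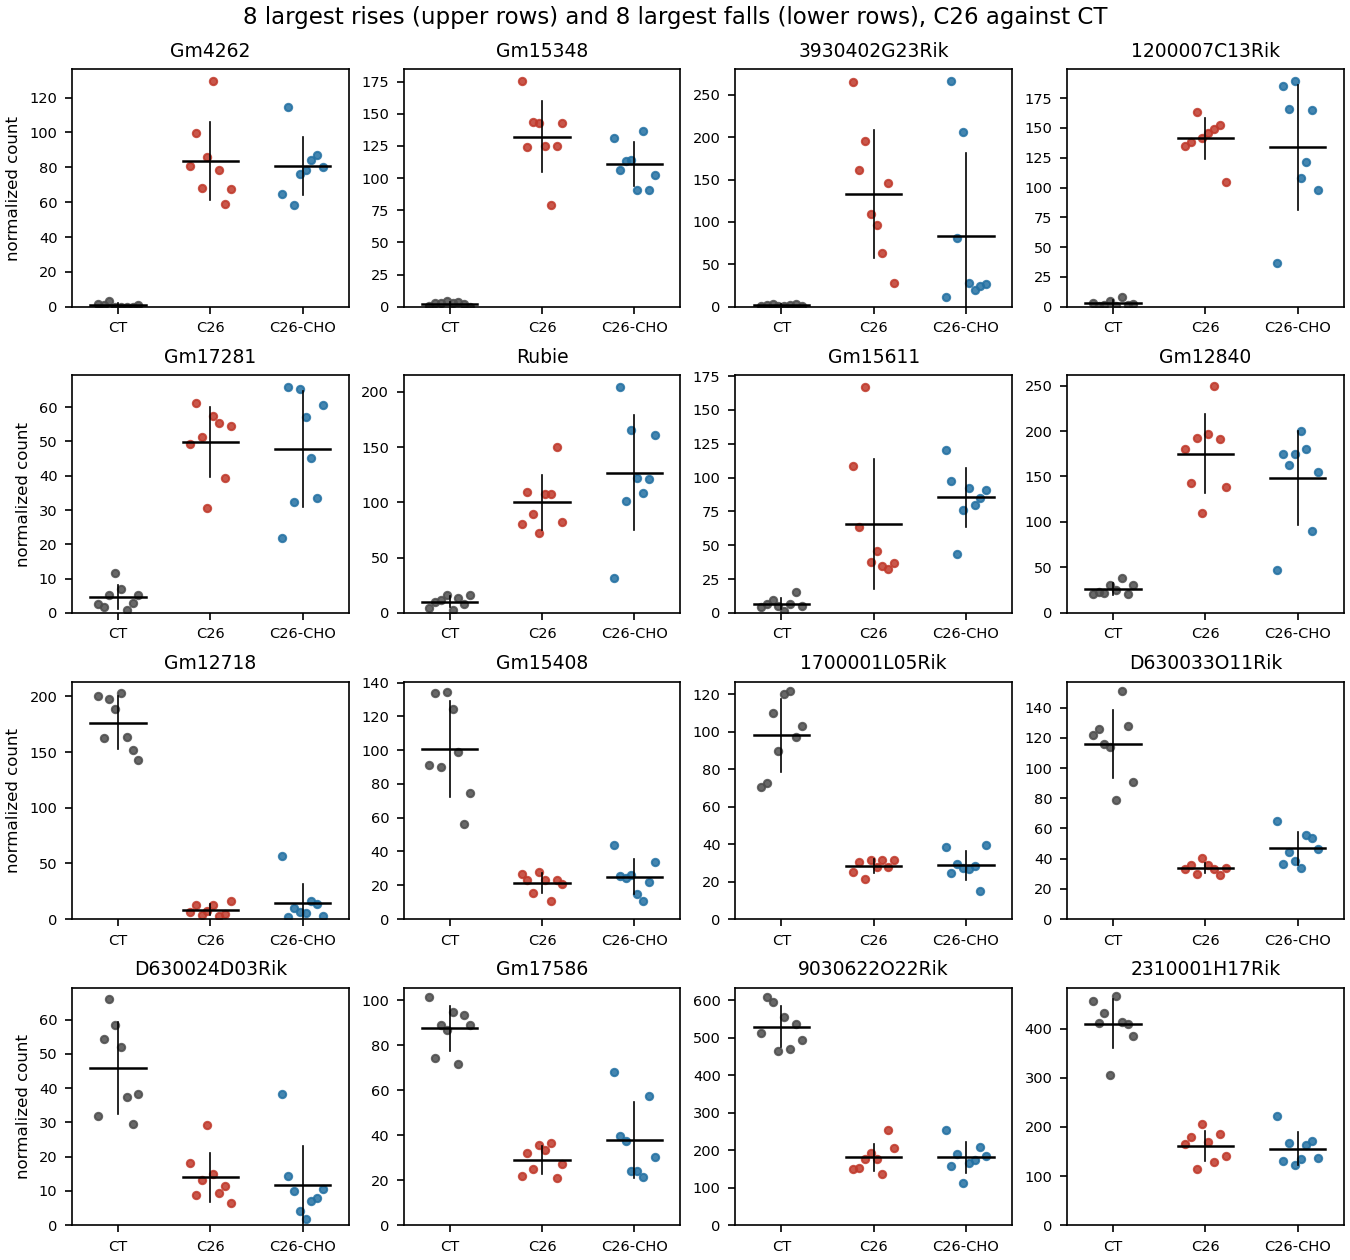
Each panel shows 1 lincRNA, with the normalized count of each mouse (points, linear axis from 0), the group mean (bar) and the SD (line, cut at 0), n = 8 per group; the upper 8 panels are the largest rises and the lower 8 the largest falls. In every panel the C26 points do not overlap the CT points. Most C26-CHO points lie with C26, with C26-CHO 1 nearer to CT in several panels (56.3 for Gm12718). For 3930402G23Rik, however, most C26-CHO points lie below all C26 points.

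2 lincRNAs under the level used for the named rises also went from near 0, and were chosen after their values were seen. Gm10032 had 0 at the median and 3.70 at the highest in CT, from 5 reads in all, and 19.1, 28.4 and 36.6 in C26 (4.44, SE 0.37, adjusted p = 7.06e-11). Gm5627 had 1 read in 8 CT livers together and 210 in 8 C26 livers, a ratio of 258 (95% counting interval 45.8 to 10200), with C26 values of 13.5, 26.7 and 51.1 (4.67, SE 0.37, adjusted p = 3.3e-11).

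Nuclear body RNAs moved in opposite directions. Malat1, which sits in nuclear speckles, had 20268, 23201 and 26965 in CT and 15036, 16597 and 17366 in C26, with no overlap (-0.49, SE 0.06, adjusted p = 6.02e-08). Its share of all reads was 0.116% ± 0.00732 in CT and 0.0646% ± 0.00378 in C26 (mean ± SD, n = 8). Neat1, the scaffold of paraspeckles and the neighbour of Malat1 on chromosome 19, had 1571, 2767 and 3919 in CT and 2786, 3347 and 5391 in C26 (0.51, SE 0.20, adjusted p = 0.024). The groups overlapped widely, and the call of Neat1 was lost without CT 6, CT 7, CT 8 or C26 4 (0.41 to 0.44, adjusted p = 0.0549 to 0.0616). Per kb, Malat1 was at 3305 in CT and 2342 in C26, and Neat1 at 128 and 177. Of all genes tested, 33.3% were called higher in C26 and 32.9% lower. Of the mRNAs of 14 proteins of these bodies, 5 were called higher and 3 lower, with a median log2 fold change of 0.04. Among them Nono, a core paraspeckle protein, fell from 1963 ± 94.5 to 1700 ± 48.6 (-0.21, adjusted p = 3.4e-05), while Sfpq, another core paraspeckle protein, rose (0.38, adjusted p = 0.0129). Son, a speckle core protein, rose from 3390 ± 423 to 4492 ± 476 (0.41, adjusted p = 0.000369), while Srrm2, another, fell (-0.18, adjusted p = 0.0177). Sfpq and Srrm2 were chosen after their values were seen.

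RNAs of the imprinted Dlk1-Dio3 locus on chromosome 12, whose noncoding RNAs are made from the maternal copy, also parted. Meg3 (chr12:109541001-109571726, plus strand) had 91.4, 165 and 254 in CT and 32.3, 62.1 and 153 in C26 (-1.35, SE 0.36, adjusted p = 0.0017). The groups overlapped through C26 5 at 153. Mirg (chr12:109729764-109749460, plus strand), at the far end of the same cluster, had 2.65, 3.93 and 12.9 in CT and 30.6, 36.6 and 47.1 in C26, with no overlap (2.59, SE 0.25, adjusted p = 1.57e-09). Rian, which lies between them and has another gene type, had a log2 fold change of -1.25. Mirg is low, with 52 reads in all CT livers and 268 in C26. H19, the lincRNA of the other classical imprinted locus, was under the minimum at a mean of 3.71. Of 6 tested imprinted protein-coding genes, 1 was called higher and 4 lower, beside 33.3% and 32.9% of all genes, with a median of -0.25. The riser was Peg3, a zinc finger gene expressed from the paternal copy, from 125 ± 30.1 to 440 ± 59 (1.83, adjusted p = 6.17e-10).

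**Figure D3:**
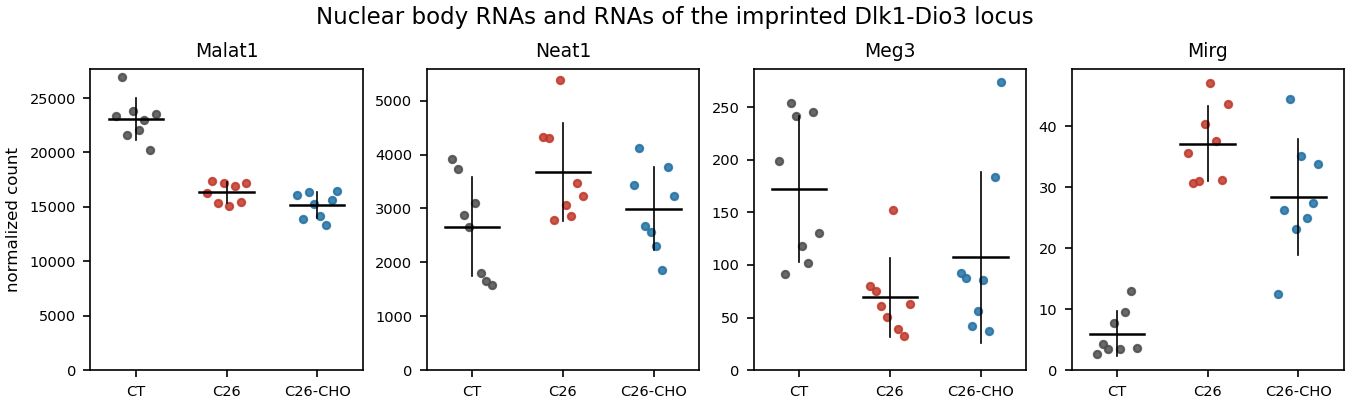
Normalized count of each mouse (points, linear axis from 0) with the group mean (bar) and SD (line), n = 8 per group, for Malat1, Neat1, Meg3 and Mirg. Malat1 and Meg3 were lower in C26 than in CT and Neat1 and Mirg higher, with no overlap of C26 and CT for Malat1 and Mirg.

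Mirg is the host of 14 microRNA hairpins, and Mir17hg is the host of the miR-17-92 cluster, a set of microRNAs known from cell growth. The mature sequences are shown because the seed, bases 2 to 8 (in capitals), groups the products of each host (RefSeq, GRCm38.p6). Of Mir17hg, miR-17-5p and miR-20a-5p share the seed AAAGUGC, miR-19a-3p and miR-19b-3p share GUGCAAA, and miR-18a-5p and miR-92a-3p have seeds of their own. Of the 26 mature microRNAs of Mirg, only miR-453 and miR-496a-5p share a seed, GGUUGCC, and miR-134-5p and miR-410-3p stand for the rest.
mmu-miR-17-5p: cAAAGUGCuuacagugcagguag
mmu-miR-20a-5p: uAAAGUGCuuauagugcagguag
mmu-miR-18a-5p: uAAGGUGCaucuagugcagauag
mmu-miR-19a-3p: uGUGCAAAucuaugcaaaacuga
mmu-miR-19b-3p: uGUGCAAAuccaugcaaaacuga
mmu-miR-92a-3p: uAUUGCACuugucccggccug
mmu-miR-453: aGGUUGCCucauagugagcuugca
mmu-miR-496a-5p: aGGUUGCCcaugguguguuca
mmu-miR-134-5p: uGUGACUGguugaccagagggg
mmu-miR-410-3p: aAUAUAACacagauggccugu
The libraries measured the host RNA and no mature microRNA. Mir17hg had 23.8, 43.6 and 46.8 in CT, 38.2, 55.9 and 71 in C26 and 32.1, 41.1 and 53.5 in C26-CHO. Its rise in C26 was 0.44 (SE 0.15, adjusted p = 0.0136), with overlapping groups, and 0.34 (adjusted p = 0.0553) after quantile normalization. 6720427I07Rik, the host of let-7a, let-7d and let-7f and named after its values were seen, had 49.7 ± 9.34 in CT and 41.7 ± 7.43 in C26 (-0.24, adjusted p = 0.122). Over all 160 lincRNAs, 11 held a microRNA, and of these 4 were called higher, 3 lower and 4 not called, beside 33.3% of all genes called higher and 32.9% lower.

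Hosts of snoRNAs, which guide the modification of ribosomal RNA, did not move one way. Of 7 lincRNAs that held a snoRNA, 4 were called higher and 2 lower, beside the same shares of all genes, 33.3% and 32.9%. Snhg18, the host of Snord123, had 5.29, 11.1 and 23 in CT and 24.5, 38.3 and 50.2 in C26 (1.67, SE 0.22, adjusted p = 2.84e-07). It starts 148 bases from the axon guidance gene Sema5a on the other strand, which had 13.4 ± 4.64 and 16.4 ± 5.92 (0.28, adjusted p = 0.357). Snhg6, the host of Snord87, had 86.6, 114 and 128 in CT and 156, 173 and 187 in C26 (0.61, SE 0.08, adjusted p = 1.52e-07). It overlaps an exon of Mcmdc2, which was at 5.54 ± 4 in CT and 32.8 ± 11.2 in C26. Epb41l4aos fell from 82.8 ± 7.78 to 48.5 ± 5.53 (-0.76, SE 0.11, adjusted p = 8.23e-07) and Snhg20 from 105 ± 17 to 68.2 ± 9.47 (-0.60, SE 0.11, adjusted p = 2.83e-05), each with no overlap. Snhg12, the host with 5 snoRNAs, had 88 ± 14.3 and 94.5 ± 14.9 (0.10, adjusted p = 0.437), a difference whose sign turned after quantile normalization. Of the mRNAs of 9 core proteins of snoRNA particles, 3 were called higher and 3 lower, beside 33.3% and 32.9% of all genes. The median of the 9 was 0.06. Dkc1, the pseudouridine synthase, fell from 334 ± 25.9 to 206 ± 21.2 (-0.70, adjusted p = 1.82e-09), and Nop58, a box C/D core protein, rose from 320 ± 103 to 479 ± 45.8 (0.63, adjusted p = 0.00042). Of the mRNAs of 10 factors of nonsense-mediated decay, which removes many spliced host RNAs, 1 was called higher and 3 lower. The median of the 10 was -0.03.

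Of the X inactivation centre, Jpx and Ftx rose. Jpx, an activator of Xist, had 37.9, 56.2 and 59.3 in CT and 66.6, 81.8 and 99.4 in C26, with no overlap (0.65, SE 0.10, adjusted p = 4.17e-06). Ftx had 41.9, 54.1 and 68.3 in CT and 57.4, 77.1 and 92.4 in C26 (0.49, SE 0.13, adjusted p = 0.00145), with overlap. Xist, the RNA that coats the inactive X chromosome, was near the minimum, with 8.61, 9.52 and 15.9 in CT and 4.18, 11.4 and 31.9 in C26 (0.14, SE 0.33, adjusted p = 0.73). Its sign turned after quantile normalization and without C26 2.

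Among other studied lincRNAs, 1700020I14Rik, listed in RefSeq as Oip5os1 and known as Cyrano, a regulator of miR-7, had 1429, 1862 and 2248 in CT and 1115, 1336 and 1626 in C26 (-0.43, SE 0.09, adjusted p = 0.000128), with overlap. Platr4, an RNA known from embryonic stem cells, had 12, 19.2 and 24.7 in CT and 4.36, 9.67 and 14 in C26 (-0.96, SE 0.19, adjusted p = 8.88e-05). 4 others did not pass. Gm14005, which lies 15772 bases from the apoptosis gene Bcl2l11, had 9.48 ± 4.63 and 13.4 ± 4.19 (0.53, adjusted p = 0.0868), and was called when CT 5 (0.66, adjusted p = 0.0299) or C26 5 (0.64, adjusted p = 0.0391) was left out. Pvt1, the neighbour of Myc, had 16.5 ± 8.65 and 13.5 ± 7.49 (-0.28, adjusted p = 0.417). Bvht, known from heart development, had 21.1 ± 3.18 and 18.5 ± 5.77 (-0.23, adjusted p = 0.286). Lncpint, an RNA induced by p53, had 10.6 ± 5.15 and 10.4 ± 4.79 (-0.02, adjusted p = 0.961), and its sign changed when single mice were left out.

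Each lincRNA was then set beside the nearest tested protein-coding gene. In 75 of 160 pairs both genes were called in C26, 52 of them in the same direction (28 both higher, 24 both lower), and in 23 the directions were opposite. Of all tested genes, 66.3% were called in C26, and pairs of other genes were not counted for comparison. Across pairs the fold changes had a Pearson r of 0.257 and a Spearman rho of 0.318, given as a description over 160 pairs with 150 distinct neighbours that share the same livers. Without exon overlap, r was 0.157 for 76 pairs farther than 10 kb apart and 0.199 for 47 pairs within 10 kb (0.165 and 0.164 after quantile normalization). It was 0.373 for the 33 pairs whose lincRNA overlapped an exon of a protein-coding gene, with which it may share reads. That gene was not always the neighbour of the pair. C330002G04Rik overlaps Trpm3 but was paired with Klf9, 65302 bases away. For the 4 pairs in which the lincRNA lay inside or across a coding gene, r was 0.981. For the 22 divergent pairs within 10 kb it was 0.599. In these 22, transcribed away from each other, 13 pairs had both genes called and 11 of the 13 went the same way. No like counts of other gene pairs stand beside these.

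Divergent pairs are given here after their values were seen. E230001N04Rik had 0.925, 4.41 and 28.2 in CT and 12, 30.9 and 48.1 in C26 (2.2, adjusted p = 0.000136), beside Fkbp5, a chaperone gene induced by glucocorticoids (1.95, adjusted p = 4.49e-07). Gm26608 fell by 0.52 (adjusted p = 0.00619) beside Insig1, a brake on cholesterol synthesis, which fell by 1.79 (adjusted p = 4.32e-09). A330035P11Rik rose from 40.9 ± 4.95 to 66.6 ± 6.65 (0.69, adjusted p = 1.28e-05) beside the endosomal gene Tm9sf2 (0.71, adjusted p = 6.89e-11). D730003I15Rik went against its neighbour, with -0.72 (adjusted p = 0.00927) beside the stress factor gene Atf3, which had 0.82 (adjusted p = 0.0244). Exons of 33 lincRNAs overlapped those of a protein-coding gene (r 0.373 in their pairs), and reads of overlapping exons cannot be told apart where strand was not used.

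**Figure D4:**
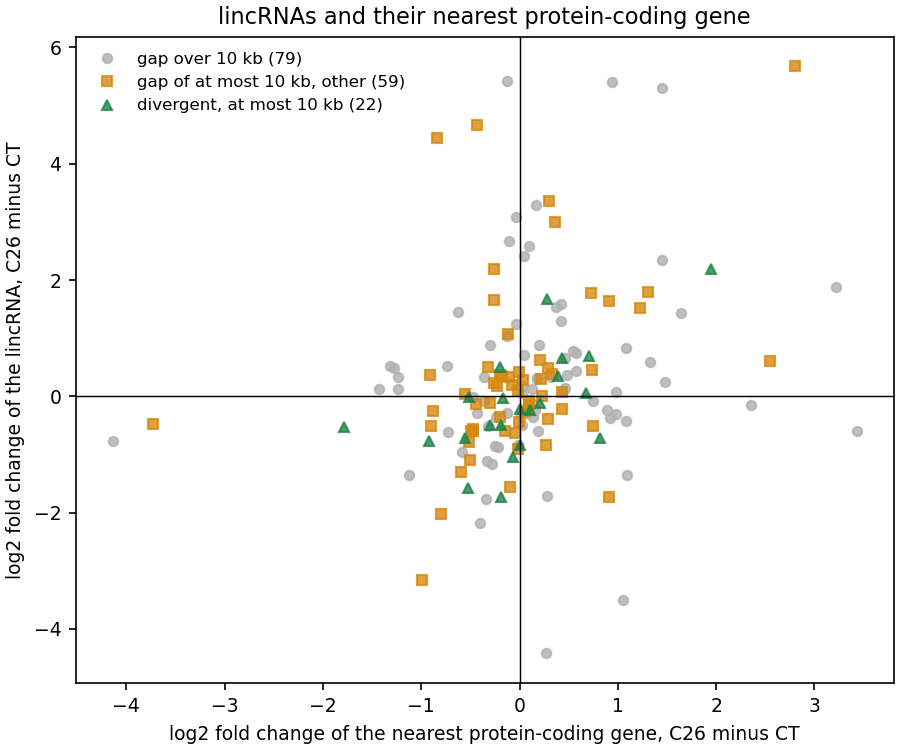
Each point is 1 of 160 lincRNAs, placed by the log2 fold change of its nearest tested protein-coding gene (x) and its own (y), C26 minus CT; triangles are divergent pairs within 10 kb (22), squares other pairs within 10 kb (59) and circles pairs more than 10 kb apart (79). Triangles with large changes lie mostly at the lower left and upper right, and Gm4262 with Litaf is the square at the upper right (5.68 and 2.80).

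The second comparison, C26-CHO against C26, asks what cholestyramine changed in tumour-bearing mice. 1 lincRNA of 160 was called, lower in C26-CHO (0.625%, against 0.705% of all genes called, 0.15% called lower and 0.0427% called lower by at least 2-fold). No lincRNA was called higher, against 0.556% of all genes and 0.128% by at least 2-fold. None separated the groups without overlap, against 0.0997% of all genes higher and 0.0356% lower. In limma 25 lincRNAs (15.6%) had an unadjusted p under 0.05, against 13% of all genes. The edgeR test called 0 higher and 1 lower, and DESeq2 called 2 higher and 2 lower. Of the 122 with a mean of at least 10 in every group, 0 were called and 21 had an unadjusted p under 0.05. The median log2 fold change was -0.07 for lincRNAs and 0.00 for all genes.

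The call was Gm5627 (chr9:102739648-102756685, plus strand, 4 exons), one of the RNAs near 0 in CT, with a mean of at least 10 only in C26. It had 13.5, 26.7 and 51.1 in C26 and 0.783, 5.45 and 25.2 in C26-CHO (-2.0, SE 0.37, adjusted p = 0.0149). 7 of 8 C26-CHO mice were below every C26 mouse, and C26-CHO 3, at 25.2, lay within the C26 range. The call rests on 210 reads in C26 and 64 in C26-CHO, and it was lost in a fit of these 2 groups alone (-2.0, adjusted p = 0.0714). Compared with CT, Gm5627 was still higher in C26-CHO (2.67, adjusted p = 7.37e-07, a ratio of 67.6 with a 95% counting interval of 11.7 to 2710).

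3 other lincRNAs came near the threshold. 1810058I24Rik had 791, 917 and 1025 in C26 and 868, 1124 and 1684 in C26-CHO (0.40, SE 0.11, adjusted p = 0.0898), with 7 of 8 C26-CHO mice above every C26 mouse. Snhg6 had 156, 173 and 187 in C26 and 120, 140 and 169 in C26-CHO (-0.28, SE 0.08, adjusted p = 0.0814), with 6 of 8 mice below every C26 mouse. DESeq2 called both (adjusted p = 0.0214 and 0.0418), and so did limma without C26-CHO 3 (adjusted p = 0.0215 and 0.0407). Snhg6 was also called without C26-CHO 4 (-0.32, adjusted p = 0.0393). 9030616G12Rik, named after its values were seen, had 21.9, 31 and 44 in C26 and 30.1, 52.7 and 74.8 in C26-CHO (0.70, adjusted p = 0.077).

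C26-CHO 1 lay between the groups. For 49 lincRNAs whose C26 and CT ranges did not overlap, the value of C26-CHO 1 was on the CT side of the whole C26 range in 32 (65.3%). In the other 7 C26-CHO mice this was so for 5 to 16 of the 49 (10.2% to 32.7%). Over all 4910 such genes the share was 73.4% in C26-CHO 1 and 11.2% to 42.1% in the others. In this mouse 1200007C13Rik was at 36.8, against 97.8 to 190 in the other 7, Rubie at 31.3 against 101 to 205 and Gm12718 at 56.3 against 1.69 to 16.6. The labels give no tumour weight, and the reason for its position was not tested.

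**Figure D5:**
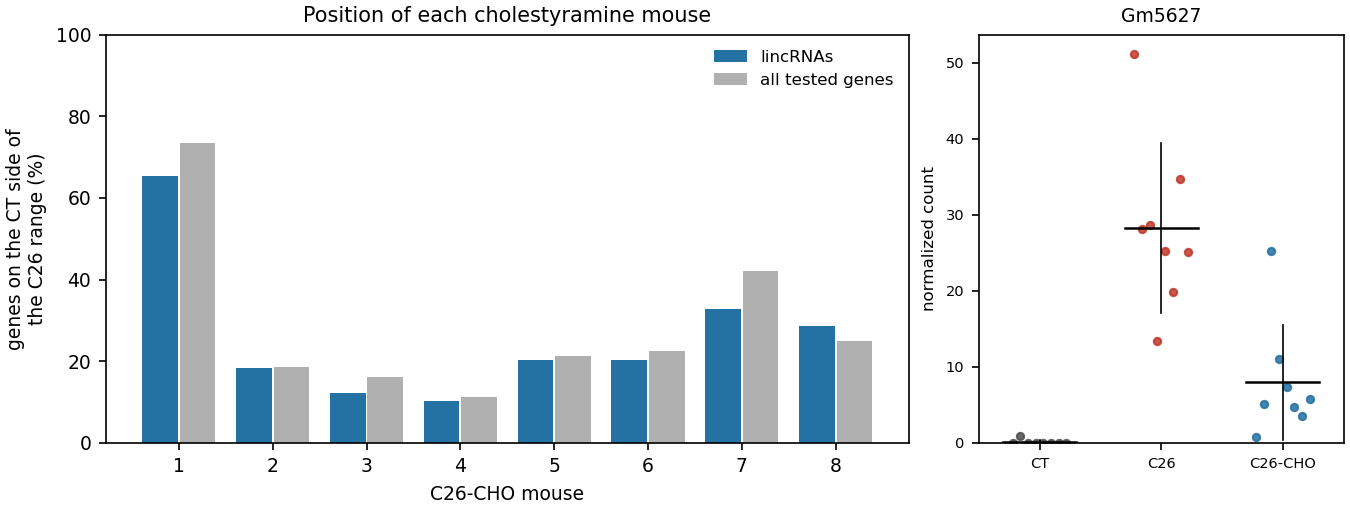
Left, for each C26-CHO mouse, the percentage of genes with non-overlapping C26 and CT groups whose value lies on the CT side of the whole C26 range (blue, 49 lincRNAs; grey, all 4910 tested genes of this kind); right, the normalized count of Gm5627 in each mouse with the group mean (bar) and SD (line, cut at 0), n = 8. C26-CHO 1 has 65.3% and 73.4%, and 7 of 8 C26-CHO mice are below all C26 mice for Gm5627.

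The last comparison, C26-CHO against CT, shares the CT mice with the first. In it 90 lincRNAs were called (56.2%, against 62.2% of all genes), 43 higher (26.9%, against 31.3%) and 47 lower (29.4%, against 30.9%). Of the 122, 24 were higher and 37 lower. Side by side in C26-CHO and in C26, each against CT, Gm4262 had 5.64 and 5.68, Gm15348 5.19 and 5.43, 1200007C13Rik 5.10 and 5.31, Gm12718 -4.21 and -4.42, and 9030622O22Rik -1.57 in both. Malat1 had -0.61 (SE 0.06, adjusted p = 2.2e-09), with no overlap of C26-CHO and CT. Meg3 had -0.88 (SE 0.36, adjusted p = 0.0339), and its C26-CHO values ran from 36.8 to 274, with C26-CHO 7 and C26-CHO 8 above every C26 mouse. That call was lost with edgeR (-0.68, adjusted p = 0.0967) and DESeq2 (-0.69, adjusted p = 0.108), and without CT 1, 3, 4 or 7 or C26-CHO 3, 4 or 6 (-0.84 to -0.71, adjusted p = 0.0558 to 0.0833). Mirg had 2.16 (SE 0.25, adjusted p = 5.12e-08). Gm42418 had 0.48 (SE 0.21, adjusted p = 0.0509), and -0.67 (adjusted p = 0.0261) after quantile normalization. It was called higher with DESeq2 (0.53, adjusted p = 0.0151) and edgeR (0.54, adjusted p = 0.0226), and in limma without CT 2, 5 or 8, C26 3, or C26-CHO 1, 2 or 7 (0.48 to 0.61, adjusted p = 0.0124 to 0.0492).

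Rare lincRNAs varied more between mice of a group than abundant ones. The median coefficient of variation of lincRNAs with a mean of 10 to 50 was 31.0% in CT, 28.3% in C26 and 27.5% in C26-CHO, and that of all genes at this level 28.5%, 28.2% and 30.0%. For lincRNAs with a mean over 50 it was 16.4%, 17.4% and 21.7%, and for all genes 12%, 10.5% and 12.3%. The class over 50 has no upper limit, and levels within it were not matched. Of its 56 lincRNAs, 28 had a mean of 50 to 100.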

How the data were processed

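Liver RNA of 24 mice in 3 groups of 8 was sequenced. The signal that the authors deposited is the reads of a gene scaled by a size factor per library. Per the submitters' processing notes, bcl2fastq 2.17, FastQC, Trimmomatic 0.38, STAR 2.6.1d and DESeq2 1.22.2 were used with build GRCm38. For the counting tool, the annotation and strand, nothing is given in the sources used here. Values were whole multiples of 1 read for 100% of values (tolerance 0.001), so reads were recovered.

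Gene types and coordinates are from GENCODE M21 and sequences from RefSeq. The members and lists were chosen with earlier results of these data known. Genes with a mean of at least 10 (14040) were fitted with limma 3.58.1 in R 4.3.3 on log2(value + 1), all 24 libraries and 3 groups in 1 fit with a trend. A call is a Benjamini-Hochberg adjusted p under 0.05. The pipeline was tested on simulated data. Mice are the replicates, and shared numbers were not treated as pairs.

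Named lincRNAs are the 8 largest rises and 8 largest falls among calls with a mean of at least 20, the 8 highest per kb, and members of the lists of studied RNAs. Alternatives were pseudocounts of 0.5 and 5, no filter, a mean of at least 50, quantile and TMM scaling, edgeR 4.0.16, DESeq2 1.42.0, 2 groups only, a replicate block and leaving out each mouse. Intervals of ratios (95%) cover counting error only.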

Additional observations from a re-analysis of the deposited data

Results flagged for a closer look

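In 132 sets of 8 mice (44 named lincRNAs in 3 groups), 12 values lay far from those of the other 7 mice of the group, where chance flags about 1 in 20 groups (5%). 3 of the 12 were values of C26-CHO 1: 56.3 for Gm12718 (others 1.69 to 16.6), 38.3 for D630024D03Rik (others 1.85 to 14.4) and 58.7 for Snhg12 (others 72.9 to 85.5). In C26, Gm10076 was 729 in C26 1 (others 559 to 633), Meg3 was 153 in C26 5 (others 32.3 to 79.7) and Xist was 31.9 in C26 2 (others 4.18 to 13.5). In CT, Snhg6 was 86.6 in CT 5 (others 110 to 128), Gm10032 was 3.70 in CT 7 (others 0 to 0.883) and Gm5627 was 0.862 in CT 2, a value of 1 read, with 0 in the others. In the other C26-CHO mice, Gm14005 was 5.05 in C26-CHO 3 (others 11.5 to 16.1), Gm5627 was 25.2 in C26-CHO 3 (others 0.783 to 11) and Lncpint was 17.8 in C26-CHO 6 (others 5.82 to 11.1).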

How the results depend on the processing

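Counts of called lincRNAs in C26 against CT stayed within 1.5 times of 53 higher and 49 lower under all alternatives run except a mean of at least 50, which tests fewer genes and gave 23 and 22. That minimum gave 19 higher and 24 lower for C26-CHO against CT and 0 lower for C26-CHO against C26. For C26-CHO against C26, DESeq2 gave 2 higher and 2 lower, and a fit of the 2 groups alone gave 0 lower. Leaving out 1 mouse gave 49 to 54 higher and 44 to 50 lower in C26 against CT, 40 to 44 and 43 to 49 in C26-CHO against CT, and 0 to 2 and 1 to 3 in C26-CHO against C26, where the higher counts came without C26-CHO 3 (2 and 3) and without C26-CHO 4 (1 and 2). The cause was not tested. Deviations of same-numbered mice from their group means had r from -0.20 to 0.25 over 24 pairs (median 0.08, 9 pairs over 0.1). Differently numbered mice were not compared. A replicate block gave 55 and 51, 0 and 1, and 43 and 47. Signs turned after quantile normalization for Gm42418 (-0.34 in C26 against CT, -0.67 in C26-CHO against CT), Snhg12 (-0.000298) and Xist (-0.0438). Leaving out 1 mouse turned the sign of Xist (-0.0634 to 0.32, below 0 without C26 2) and of Lncpint (-0.16 to 0.12); neither was called. On the recovered reads, edgeR called 52 higher and 48 lower and DESeq2 53 and 49 in C26 against CT. The r between lincRNAs and neighbours was 0.252 after quantile normalization, against 0.257. Scaling moved the median of all genes by at most 0.02. The rarer lincRNAs rest on few reads.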
